A study of Drosophila melanogaster with 27 samples.

Results

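The genes described are 4 Hox genes, *abd-A*, *Abd-B*, *Ubx* and *Antp*, and *exd* and *hth*, which encode the cofactors that Hox proteins bind DNA with. They were taken by name, as the rows of the count tables whose FlyBase identifier carries one of these symbols, and make up 6 of the 16257 genes in the tables. RNA-seq was done on sorted germ cells, sorted somatic cells and whole ovaries of *D. melanogaster* larvae at the early stage (72 h AEL, hours after egg laying), the mid stage (96 h AEL) and the late stage (120 h AEL, white pupae), in 3 biological replicates each. These stages span the formation of terminal filaments, the stacks of somatic cells that set the number of ovarioles. Germ cells and somatic cells were GFP-positive cells from ovaries of the offspring of UAS:Green Stinger I females (a nuclear GFP under Gal4 control). Fathers were nos:GAL4 males, whose stock also carries UAS-Dcr-2, for germ cells and bab:GAL4 males, whose Gal4 sits in the *bab1* locus and whose stock is kept over TM6B, Tb, for somatic cells. Tissue and driver parent thus differ together and cannot be told apart. Whole ovaries were of the Oregon R strain and were neither dissociated nor sorted, and all libraries were made from pooled ovaries.

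Hox genes encode homeodomain transcription factors that give segments of the body their identity, and they lie in clusters in an order that follows the body axis. In the fly, *Antp* belongs to the Antennapedia complex and *Ubx*, *abd-A* and *Abd-B* to the bithorax complex, with *abd-A* and *Abd-B* acting in the abdomen, where the gonad forms. In the embryo *abd-A* is required for the somatic gonadal precursors and *Abd-B* for the posterior ones. Exd and Hth are homeodomain proteins of the TALE class: Hth carries Exd into the nucleus, and both sharpen the choice of DNA sites by Hox proteins. Polycomb group proteins hold Hox genes silent where they are off, and trithorax group proteins keep them on.

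In the BDGP6 assembly (release 6), the 3 bithorax complex genes lie on the minus strand of chromosome 3R, *Ubx* (FBgn0003944) at 16656623 to 16734426, *abd-A* (FBgn0000014) at 16807214 to 16830049 and *Abd-B* (FBgn0000015) at 16927212 to 16972236. *Antp* (FBgn0260642) lies at 6896253 to 6999228 and *hth* (FBgn0001235) at 10507561 to 10639568 of the same arm, both on the minus strand. *exd* (FBgn0000611) lies on the plus strand of X at 15992468 to 15996509. All 6 are protein coding, and their counts were summed over exons and transcripts. *Antp* shares 3978 exon bases on the same strand with *CG46458*, which held 10.2 expected counts over the 27 libraries, and *hth* shares 207 bases with an antisense RNA, *asRNA:CR44018*, which held 63. Whether strand was used in counting is not given in the sources used here, so reads in these stretches could belong to either gene.

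Depth ranged over 9680615 to 72875881 expected counts per library. A gene without counts could lie at up to 0.0412 to 0.31 CPM (counts scaled to library size), the value of 3 counts, a floor that covers counting error only. Levels are CPM after TMM scaling (a scaling that sets most genes equal between libraries), for whole ovaries among the 9 whole ovary libraries and for sorted cells among the 18 sorted libraries, so that values of whole ovaries and of sorted cells are given side by side and were not tested against each other. The tissue labels were checked against marker lists. The 12 germ cell markers, such as *vas* and *nos*, summed to between 2973 and 6511 CPM in germ cells and between 19.9 and 58.9 CPM in somatic cells. The 18 somatic gonad markers, such as *tj* and *bab2*, summed to between 177 and 2451 CPM in germ cells and between 2919 and 6151 CPM in somatic cells, and varied more among germ cell than among somatic libraries of a stage. The 9 fat body markers summed to between 5633 and 79213 CPM in whole ovaries, between 2.15 and 11.0 CPM in somatic cells, and 16.3 to 60.9 CPM in 8 germ cell libraries. Germ cell mid replicate 1 stood apart with 3335 CPM of fat body markers and the fewest counts of all libraries (9680615). Most results that rest on it are named as such or given with and without it, apart from the likeness between genes.

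*abd-A* was the Hox gene that these ovaries transcribed at a high level. Its level in CPM per kb of merged exons, the scale on which genes can be set side by side, averaged 51.6 ± 23.9 in late germ cells, 188 ± 25.6 in late somatic cells and 195 ± 31.6 in late whole ovaries (SD, n = 3 each). Among all genes of known length in late somatic cells, this was rank 329 of 12332 genes with counts. *exd* came next, at 34.4 ± 8.03 CPM per kb in late germ cells, 54.9 ± 4.14 in late somatic cells and 43.8 ± 3.31 in late whole ovaries. *hth* followed at 1.53 ± 0.65, 3.76 ± 0.158 and 6.74 ± 1.64 CPM per kb in the same 3 groups, and *Abd-B* at 0.536 ± 0.414, 0.175 ± 0.0421 and 1.08 ± 0.106.

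In all 6 groups of somatic cells and whole ovaries the order was *abd-A*, *exd*, *hth*, *Abd-B*, and the lowest library for each of these genes lay above the highest library for the next. In germ cells *abd-A* and *exd* overlapped at all 3 stages, since *abd-A* spanned 2.52 to 60.4 CPM per kb among the early germ cell libraries alone. *hth* and *Abd-B* overlapped in early germ cells. *Antp* and *Ubx* were last in most groups and overlapped with each other in 7 of 9 groups, all but early and mid whole ovaries. The order of the means of the first 4 genes was the same when the longest transcript was used as the length.

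Along the bithorax complex, then, the middle gene was abundant and its neighbours were not. *Ubx*, the gene of the posterior thorax and first abdominal segment, had no counts in 6 of 9 germ cell libraries and 7 of 9 somatic cell libraries. Its highest level was 0.736 CPM in germ cells (early replicate 1, 20 counts), 0.317 CPM in somatic cells (mid replicate 1, 21 counts) and 0.905 CPM in whole ovaries (early replicate 3, 28 counts). *Ubx* was at too low a level to be tested in any comparison. The *iab-8* transcript (*lncRNA:iab8*), whose gene lies between *abd-A* and *Abd-B*, was added to this account after its values were seen. It averaged between 0 and 2.17 CPM in the germ cell groups, between 2.46 and 3.89 CPM in the somatic cell groups and between 3.14 and 8.27 CPM in the whole ovary groups. *lncRNA:bxd*, upstream of *Ubx*, had counts in 1 of 27 libraries.

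**Figure D1:**
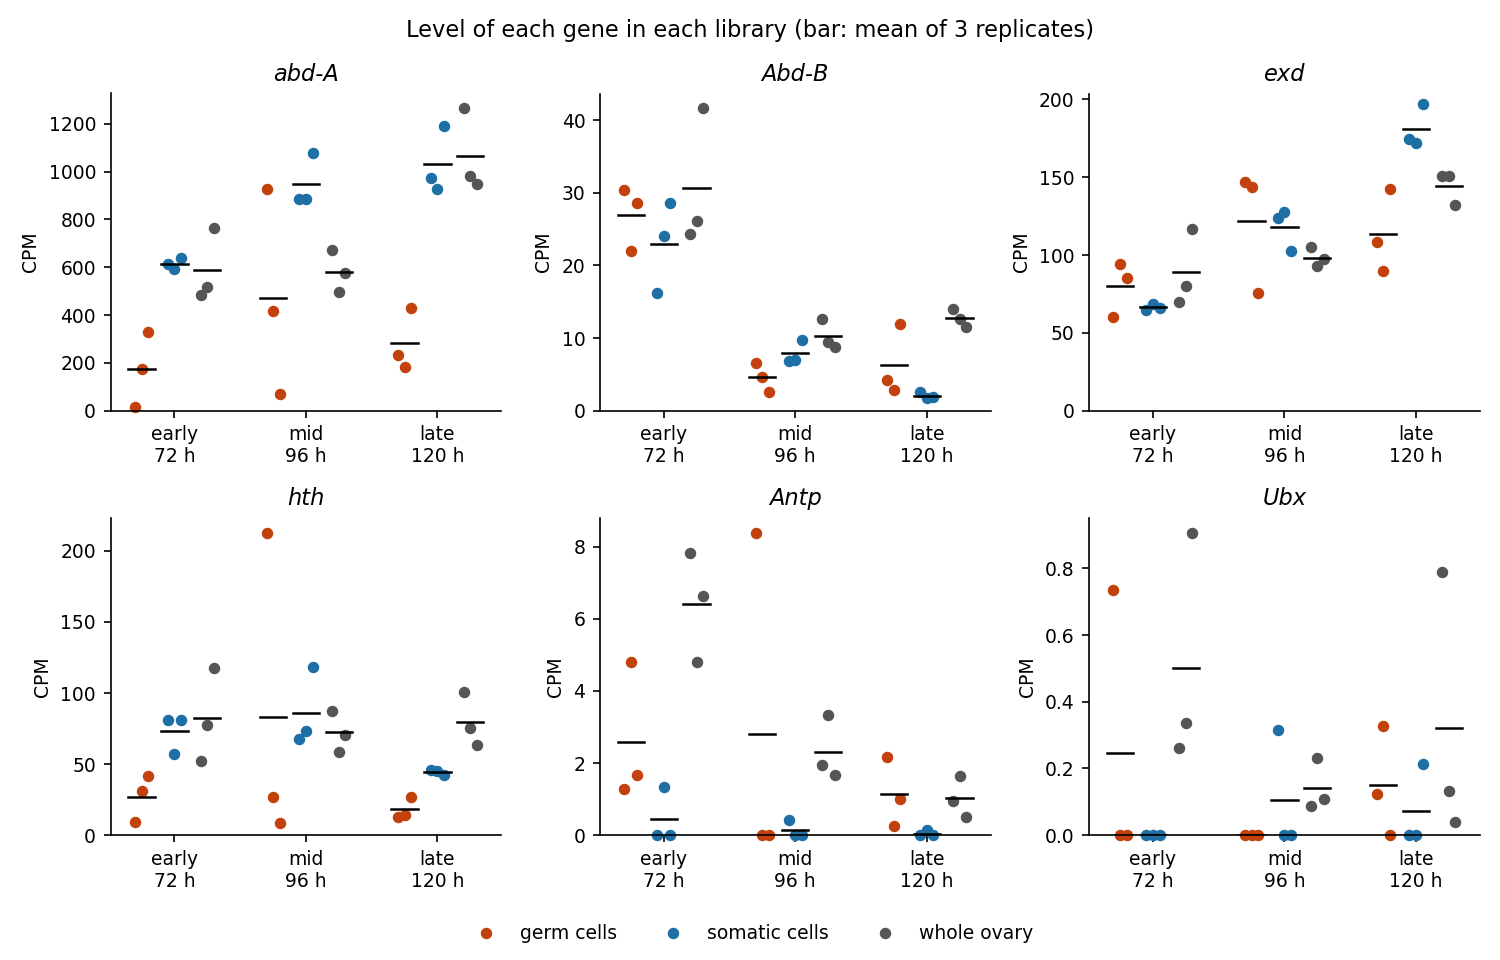
Level of each of the 6 genes in CPM (linear axis from 0, 1 scale per panel) in each library at 72, 96 and 120 h AEL, with germ cells, somatic cells and whole ovaries from left to right at each stage. Points are libraries and bars are means of 3. *abd-A* spans 13.8 to 928 CPM in germ cells (928 CPM in mid replicate 1), against 594 to 1190.3 CPM in somatic cells. *Abd-B* is highest at the early stage in all 3 tissues.

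*abd-A* rose in somatic cells between the early and the late stage. The 3 somatic libraries held 612, 594 and 639 CPM at the early stage, 887, 885 and 1076 CPM at the mid stage and 972, 929 and 1190.3 CPM at the late stage. Every late and every mid library lay above every early library, and late and mid libraries overlapped. The log2 fold change was 0.75 ± 0.14 for late over early (SE, adjusted p = 0.00144, a 1.69-fold higher level), 0.61 ± 0.14 for mid over early (adjusted p = 0.0223, short of the threshold of 0.01 in edgeR but called by DESeq2) and 0.14 ± 0.14 for late over mid (adjusted p = 0.59). The rise of late over early kept its call when any 1 of the 9 somatic libraries was left out, with an adjusted p of at most 0.00808.

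In whole ovaries *abd-A* held 484, 518 and 763 CPM at the early stage, 674, 497 and 574 CPM at the mid stage and 1265, 981 and 950.2 CPM at the late stage. The late libraries lay above all others. The log2 fold change was 0.86 ± 0.22 for late over early (adjusted p = 0.0149) and 0.87 ± 0.22 for late over mid (adjusted p = 0.0171), neither of them called. Early replicate 3 was the library that held these values back: without it the adjusted p was 0.00114 for late over early and 0.0015 for late over mid. DESeq2 called both with all libraries. Somatic gonad markers moved with *abd-A*: 14 of 18 rose and 2 fell from the early to the late stage. Of all genes 21.9% were called there in either direction, including 13.5% that were lower. The sum of these markers was 1562 to 2076 CPM in early and 3523 to 4043 CPM in late whole ovaries. Their part in the values of *abd-A* was not tested. In a bulk sample fewer cells of a type and less RNA per cell cannot be told apart.

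*Abd-B* went the other way, and its fall was the largest change between stages among these genes in somatic cells. *Abd-B* acts in the most posterior segments and in the genital disc. Somatic libraries held 16.2, 24.1 and 28.6 CPM at the early stage, 6.86, 6.97 and 9.79 CPM at the mid stage and 2.63, 1.71 and 1.86 CPM at the late stage. The 3 stages did not overlap. Late over early gave a log2 fold change of -3.46 ± 0.34 (adjusted p = 2.86e-05, 11.0-fold lower), and this call was kept without any 1 library. Late over mid gave -1.90 ± 0.33 (adjusted p = 0.00296), and mid over early -1.56 ± 0.31 (adjusted p = 0.0129), which edgeR did not call. DESeq2 called it, and so did edgeR with no filter on low counts or without early replicate 1. The call of late over mid was lost without mid replicate 2 or 3 or late replicate 2 or 3, at an adjusted p between 0.0102 and 0.0168.

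The course in whole ovaries differed in shape. *Abd-B* held 24.3, 26.1 and 41.7 CPM at the early stage, 12.7, 9.49 and 8.77 CPM at the mid stage and 13.99, 12.6 and 11.5 CPM at the late stage. Early libraries lay above all others, and mid and late libraries overlapped. Late over early fell by 1.28 on the log2 scale (SE 0.24, adjusted p = 0.00332), a call that was lost without any 1 of the 3 late libraries, at an adjusted p between 0.012 and 0.0174. Mid over early gave -1.57 ± 0.24 (adjusted p = 0.0108), just short of the threshold but called by DESeq2, with RLE scaling (the size factors of DESeq2), with no filter on low counts, or without early replicate 3, and late over mid gave 0.30 ± 0.24 (adjusted p = 0.365). Late somatic cells thus held between 1.71 and 2.63 CPM where late whole ovaries held between 11.5 and 13.99 CPM. Whole ovaries also hold germ cells. Fat body markers summed to 5633 to 10265 CPM in late whole ovaries, against 3.48 to 7.04 CPM in late somatic cells. Cell content, sorting, strain and scaling differ between these sets of libraries and cannot be told apart.

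*exd* rose at each step in somatic cells. Early somatic libraries held 64.9, 68.3 and 66.1 CPM, mid libraries 124, 127 and 103 CPM and late libraries 175, 172 and 197 CPM, with no overlap between stages. The log2 fold change was 0.82 ± 0.13 for mid over early (adjusted p = 0.00391), 0.64 ± 0.13 for late over mid (adjusted p = 0.00639) and 1.46 ± 0.13 for late over early (adjusted p = 1.64e-05, 2.75-fold higher). The change over the whole interval was called without any 1 library, but the single steps were close to the threshold. Mid over early was lost in 6 of 9 cases (without any early library, mid replicate 1 or 2, or late replicate 1, adjusted p 0.0104 to 0.0192), and late over mid in 7 of 9 (without early replicate 1 or any mid or late library, adjusted p 0.0117 to 0.031).

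In whole ovaries *exd* held 70.1, 80.3 and 117 CPM at the early stage, 105, 92.7 and 97.6 CPM at the mid stage and 151, 151 and 132 CPM at the late stage. Late libraries lay above all others, with a log2 fold change of 0.70 ± 0.18 for late over early (adjusted p = 0.0163, not called by edgeR). DESeq2 called it, and without early replicate 3 edgeR gave 0.97 and called it (adjusted p = 0.000319).

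*hth*, the partner of *exd*, was called in no comparison of somatic cells by edgeR. Somatic libraries held 81.3, 57.2 and 81.0 CPM at the early stage, 67.7, 73.1 and 118 CPM at the mid stage and 45.7, 45.5 and 42.3 CPM at the late stage. The late libraries lay below all others. The log2 fold change was -0.93 ± 0.21 for late over mid (adjusted p = 0.0124) and -0.71 ± 0.21 for late over early (adjusted p = 0.0206), neither of them called. Late over mid was called by DESeq2, with no filter on low counts, and without early replicate 2 or mid replicate 1, and late over early was called without mid replicate 3. Whole ovaries held between 52.2 and 118 CPM of *hth* when early, 58.5 and 87.7 CPM when mid and 63.2 and 101 CPM when late, and the stages overlapped.

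*Antp*, a gene of thoracic identity, was low and fell in whole ovaries. It held 7.83, 4.80 and 6.63 CPM at the early stage, 1.94, 3.33 and 1.68 CPM at the mid stage and 0.948, 1.63 and 0.497 CPM at the late stage, and no stage overlapped with another. Late over early gave a log2 fold change of -2.64 ± 0.49 (adjusted p = 0.00293, 6.24-fold lower), and the call was lost without early replicate 1, late replicate 1 or late replicate 3 (adjusted p 0.0101 to 0.0164). Muscle markers moved with it: 8 of 10 fell from the early to the late stage and none rose, where 13.5% of all genes were lower. Their sum was 269 to 1214 CPM in early, 163 to 611 CPM in mid and 26.8 to 59.2 CPM in late whole ovaries, where between 1 and 4 of the 10 had no counts. Fat body markers summed to 18194 to 24695 CPM in early, 33197 to 79213 CPM in mid and 5633 to 10265 CPM in late whole ovaries. Single fat body markers went both ways. From early to late, *Fbp1*, *Lsp2*, *Fbp2* and *Obp99b* rose by 13.8, 7.84, 6.43 and 5.68 on the log2 scale. *apolpp*, *Apoltp* and *Lsp1beta* changed by -6.52, -6.54 and -3.67, and *Lsp1alpha* and *Lsp1gamma* were not called. The part of any other tissue in the fall of *Antp* was not tested. The early library with the most *Antp* (replicate 1, 7.83 CPM) had the lowest early sum of muscle markers, 269 CPM. At the mid and late stages, replicate 2 had the most *Antp* (3.33 and 1.63 CPM) and the highest muscle sum (611 and 59.2 CPM). Early replicate 1 and these libraries also had the highest fat body sum of their stage (24695, 79213 and 10265 CPM). In mid and late replicate 2 the sums of trachea markers (16.9 and 85.2 CPM) and of neuron markers (36.2 and 38.7 CPM) were the highest of their stage too. In early replicate 1 both sums were the lowest of their stage, at 25.3 CPM each.

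In sorted cells *Antp* was not found in every library. It had no counts in 6 of 9 somatic libraries, where its highest level was 1.34 CPM (early replicate 2), and in 2 of 9 germ cell libraries. Germ cells held 1.29, 4.81 and 1.68 CPM at the early stage, 8.38, 0 and 0 CPM at the mid stage and 2.17, 0.268 and 0.997 CPM at the late stage. The value of 8.38 CPM is that of mid replicate 1, the germ cell library with the most fat body transcripts (3335 CPM of markers). That library also had the highest sum of neuron markers of all libraries (96.3 CPM). Its sum of somatic gonad markers (2451 CPM) was the highest of the germ cell libraries.

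**Figure D2:**
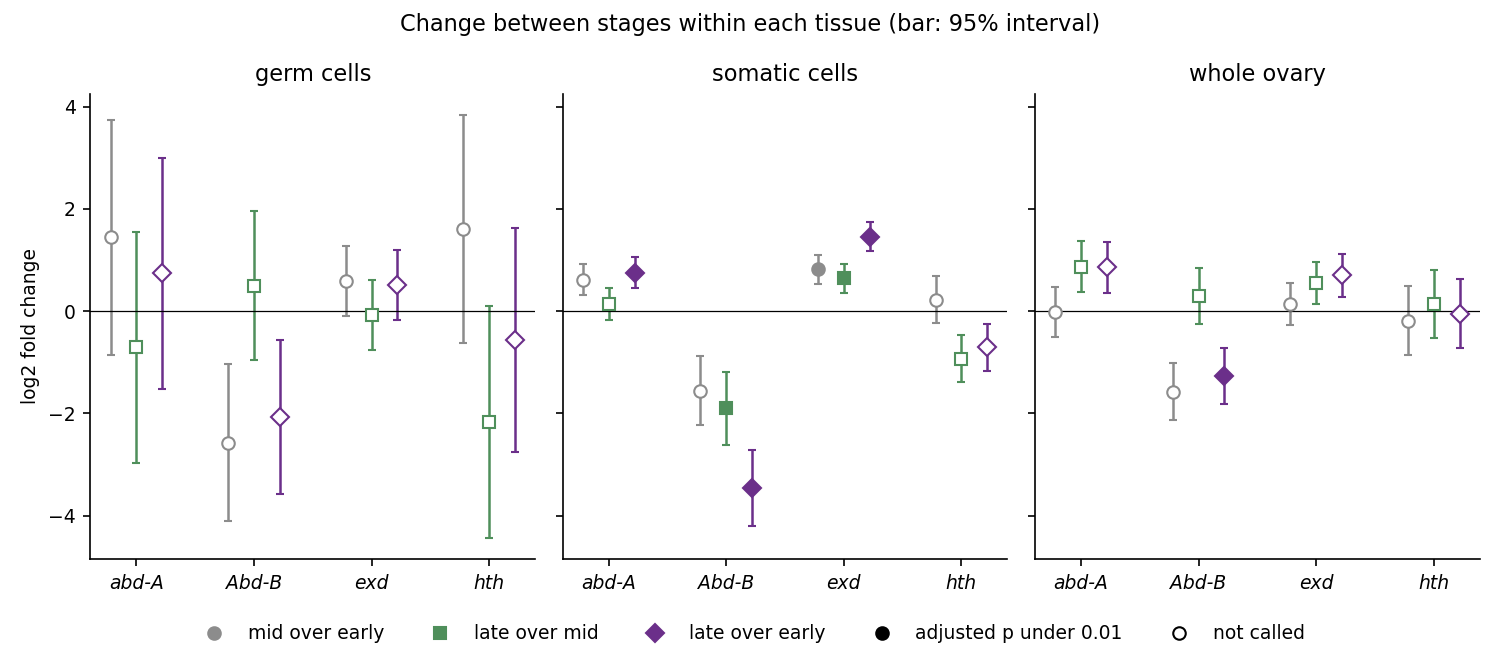
Log2 fold change between stages (y axis) of 4 genes in germ cells, somatic cells and whole ovaries, from edgeR. Error bars are 95% intervals, and filled symbols passed an adjusted p of 0.01. *Abd-B* is below 0 for late over early in all 3 panels, *exd* and *abd-A* are filled for late over early in somatic cells, and no symbol is filled in germ cells.

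Counted over the genes tested, late over early in somatic cells changed 3 of 4 members, where 23.0% of the 9931 genes tested changed. Of these members 2 were higher, as were 11.7% of all genes, and 1 was lower, as were 11.3%. Mid over early changed 1 of 4, *exd*, which was higher (1.9% of all genes were called and 0.896% were higher). Late over mid changed 2 of 4 (6.56%), with *exd* higher (3.08%) and *Abd-B* lower (3.47%). In whole ovaries late over early changed 2 of 5 members, both lower, where 21.9% of the 10060 genes tested changed and 13.5% were lower. DESeq2 called 4 of 5, with *abd-A* and *exd* higher besides. Mid over early changed 0 of 5 by edgeR (0.994% of all genes), with 2 at an unadjusted p under 0.05 and 1, *Abd-B*, called by DESeq2. Late over mid changed 0 of 5 by edgeR (14.8%), with 3 at an unadjusted p under 0.05 and 2, *abd-A* and *exd*, called by DESeq2.

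Libraries of the stages did not overlap for 4 of 4 members in somatic cells between late and early, 2 higher and 2 lower, where 27.5% of all genes were higher and 24.0% lower in this way. Between mid and early it was 2 higher (14.1%) and 1 lower (12.3%), and between late and mid 1 higher (22.5%) and 2 lower (21.3%). In whole ovaries it was 2 of 5 higher (22.2%) and 2 lower (24.1%) between late and early, 2 lower (10.9%) between mid and early, and 2 higher (23.3%) and 1 lower (33.6%) between late and mid. With 4 or 5 genes, these shares describe the members only.

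Among the markers of blood cells, *Pxn* moved with stage in somatic cells and made up most of their late sum. The 8 hemocyte markers summed to 81.7 to 138 CPM in early, 352 to 975 CPM in mid and 1867 to 2369 CPM in late somatic libraries. For late over early 1 of 4 tested, *Pxn* (a basement membrane peroxidase), rose, where 11.7% of all genes were higher. *He* and *eater* had no counts in any somatic library, and *Hml* averaged 0.77 CPM at the late stage, while *Pxn* averaged 1923 CPM. The part of these transcripts in the changes of the members was not tested.

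The 4 genes tested between stages in somatic cells had counts in every germ cell library, but the 3 libraries of a stage differed widely for *abd-A* and *hth*. *abd-A* held 13.8, 175 and 331 CPM in the early germ cell libraries, 928, 415 and 68.3 CPM in the mid libraries and 233, 184 and 431 CPM in the late libraries. Set beside somatic cells of the same stage, all early and all late germ cell libraries were lower. At the mid stage only replicate 1 (928 CPM) reached the somatic range, and the other germ cell libraries lay below that range. Over all stages germ cells were lower than somatic cells by a log2 fold change of -1.57 ± 0.46 (adjusted p = 0.0135), which was not called. DESeq2 called it, and so did edgeR without germ cell early replicate 1 or 3 or mid replicate 1 (adjusted p 0.00514 to 0.00745).

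*hth* held 9.01, 31.0 and 41.3 CPM in early germ cells, 213, 26.9 and 8.83 CPM in mid germ cells and 12.9, 14.5 and 26.97 CPM in late germ cells. The value of 213 CPM, the highest of all 27 libraries, is that of mid replicate 1. Early and late germ cell libraries, and the mid libraries at 26.9 and 8.83 CPM, lay below all somatic libraries of their stage. The log2 fold change over all stages was -0.93 ± 0.44 (adjusted p = 0.108) with mid replicate 1 and -1.67 ± 0.30 (adjusted p = 0.000532, called) without it.

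*exd* and *Abd-B* stood nearer to their somatic level. *exd* held 60.4, 94.3 and 85.5 CPM in early germ cells, 147, 144 and 75.7 CPM in mid germ cells and 109, 90.0 and 142 CPM in late germ cells. Over all stages it differed from somatic cells by -0.12 on the log2 scale, with a 95% interval of -0.41 to 0.17 (adjusted p = 0.549). Late germ cell libraries lay below all late somatic libraries, with a log2 fold change of -0.67 ± 0.24 (adjusted p = 0.0622). *Abd-B* held 30.4, 21.9 and 28.5 CPM in early germ cells, 6.53, 4.67 and 2.61 CPM in mid germ cells and 4.26, 2.80 and 11.9 CPM in late germ cells. Germ cells were below somatic cells without overlap at the mid stage (log2 fold change -0.78 ± 0.52, adjusted p = 0.301) and above them without overlap at the late stage (1.61 ± 0.54, adjusted p = 0.0487), and neither passed the threshold.

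No member passed the threshold in germ over somatic cells (0 of 5 by edgeR over all stages, with 2 at an unadjusted p under 0.05 and 1 called by DESeq2), where 25.3% of the 11243 genes tested did. At single stages it was likewise 0 of 5, where 4.79% (early), 7.47% (mid) and 7.84% (late) of all genes were called. Without overlap between germ and somatic libraries, 2 members were lower at the early stage (18.7% of all genes), 1 at the mid stage (19.5%) and 3 at the late stage (27.0%), where *Abd-B* and *Antp* were higher (31.7%). At the mid stage *abd-A* and *hth* were kept out of this count by germ cell mid replicate 1 alone. *Antp* did not pass the filter in somatic cells alone, and was tested here through its counts in germ cells. It averaged 0.0438 CPM in late somatic cells, below the value of 3 counts there (0.160 to 0.178 CPM), so its direction is not read as a result. The members at an unadjusted p under 0.05 were 1, 0 and 3 of 5 at these stages, and DESeq2 called 0 at each.

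Each germ cell library was then set against the mean of the somatic libraries of its stage, beside the somatic gonad markers that averaged at least 5 CPM in those libraries (14 when early, 15 when mid and 16 when late). Markers below that level in somatic cells were left out, so the median describes only markers that are high there. The median of these markers ran from 2.28% of the somatic level (early replicate 1) to 51.7% (early replicate 3). Single markers spread widely, over 0% to 78.2% in early replicate 1, 0% to 45.6% in mid replicate 4 and 1.42% to 147% in late replicate 4. *abd-A* ran from 2.24% to 97.8%, or to 53.7% without mid replicate 1, and lay above the median of the markers in 3 of 9 libraries, mid replicate 1 among them. *hth* lay above this median in 7 of 9, mid replicate 1 included, and *exd* and *Abd-B* in 9 of 9. *Abd-B* averaged 2.07 CPM in late somatic cells, below the 5 CPM asked of the markers. Its late percentages thus rest on a low somatic level and are not on equal terms with the median. In early replicate 1, the germ cell library with the least somatic transcripts (*tj*, a transcription factor of somatic gonad cells, at 1.33%), *abd-A* stood at 2.24%, *hth* at 12.3%, *exd* at 90.9% and *Abd-B* at 132% of the somatic level. Mid replicate 4, with markers at 13.7%, had *abd-A* at 7.19%, *hth* at 10.2%, *Abd-B* at 33.1% and *exd* at 64.2%. The part of somatic cells in the germ cell values was not tested.

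**Figure D3:**
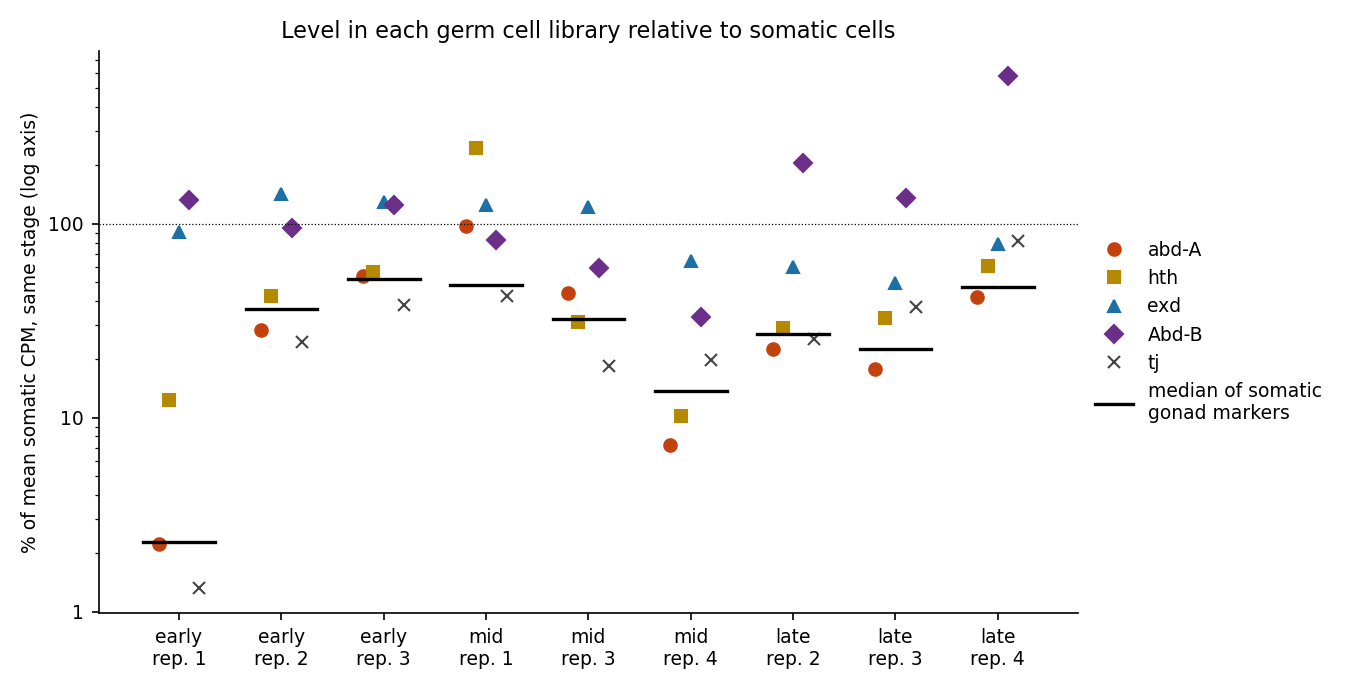
Level of *abd-A*, *hth*, *exd*, *Abd-B* and the somatic marker *tj* in each germ cell library, as a percent of the mean CPM of somatic cells at the same stage (log axis, dotted line at 100%), with the median of the somatic gonad markers (14, 15 and 16 in early, mid and late libraries) as a black bar. *exd* and *Abd-B* lie above the bar in 9 of 9 libraries and *abd-A* in 3 of 9.

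Between stages, no member was called within germ cells. The share of all 10340 genes called was 0.0% in each of the 3 comparisons, with 1940, 1203 and 678 genes at an unadjusted p under 0.05 and 549, 244 and 143 called by DESeq2 for mid over early, late over mid and late over early. Without mid replicate 4, edgeR called 485 genes for mid over early. Among the members 1, 0 and 1 of 5 were at an unadjusted p under 0.05, in both cases *Abd-B*, and DESeq2 called it for mid over early. Mid and late germ cell libraries lay below all early ones for *Abd-B*, where 13.2% and 13.0% of all genes fell in this way. The log2 fold change was -2.57 ± 0.69 for mid over early (adjusted p = 0.163) and -2.07 ± 0.67 for late over early (adjusted p = 0.602). *exd* gave 0.59 ± 0.31 for mid over early and 0.52 ± 0.31 for late over early (adjusted p = 0.327 and 0.917). For *abd-A* and *hth* the 95% intervals for late over early, -1.52 to 2.999 and -2.75 to 1.63, held the values of somatic cells (0.75 and -0.71), so that a change of that size was not detectable.

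The change between stages was also compared between germ and somatic cells, as an interaction. None of 5 members was called by edgeR in the 3 comparisons, where 0.0356%, 0.276% and 0.116% of all genes were for mid over early, late over mid and late over early, and DESeq2 called none of the members. At an unadjusted p under 0.05 there were 0, 2 and 1 members. The differences with the smallest adjusted p were those of *Abd-B* for late over mid, 2.39 ± 0.75 on the log2 scale (adjusted p = 0.102), with changes of 0.50 in germ cells and -1.90 in somatic cells, and of *exd* for late over mid, -0.72 ± 0.34 (adjusted p = 0.256), with -0.08 in germ cells and 0.64 in somatic cells.

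Opposite courses of *abd-A* and *Abd-B* in somatic cells gave a wide change in their proportion. Per length, *abd-A* was 48.2 to 81.6 times as abundant as *Abd-B* in early, 237 to 278 times in mid and 795 to 1378 times in late somatic libraries. In whole ovaries the ratio was 39.4 to 42.9, 113 to 141 and 167 to 195 at the 3 stages. In germ cells it was 0.977 to 24.9, 56.4 to 306 and 78.0 to 142, and the early and the late germ cell libraries lay below all somatic libraries of their stage. The ratio of *exd* to *hth* per length was 2.86 to 4.28 in early, 3.12 to 6.54 in mid and 13.6 to 16.7 in late somatic cells, so that late libraries lay above all others. It was 3.56 to 4.82, 4.29 to 5.68 and 5.36 to 7.49 in whole ovaries, and 7.43 to 24.0, 2.48 to 30.7 and 18.9 to 30.2 in germ cells. Without germ cell mid replicate 1, the mid germ cell libraries held 19.2 and 30.7 for *exd* to *hth* and 56.4 and 191 for *abd-A* to *Abd-B*. These ratios are within a library and do not depend on its scaling. They are given as values, with no test.

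**Figure D4:**
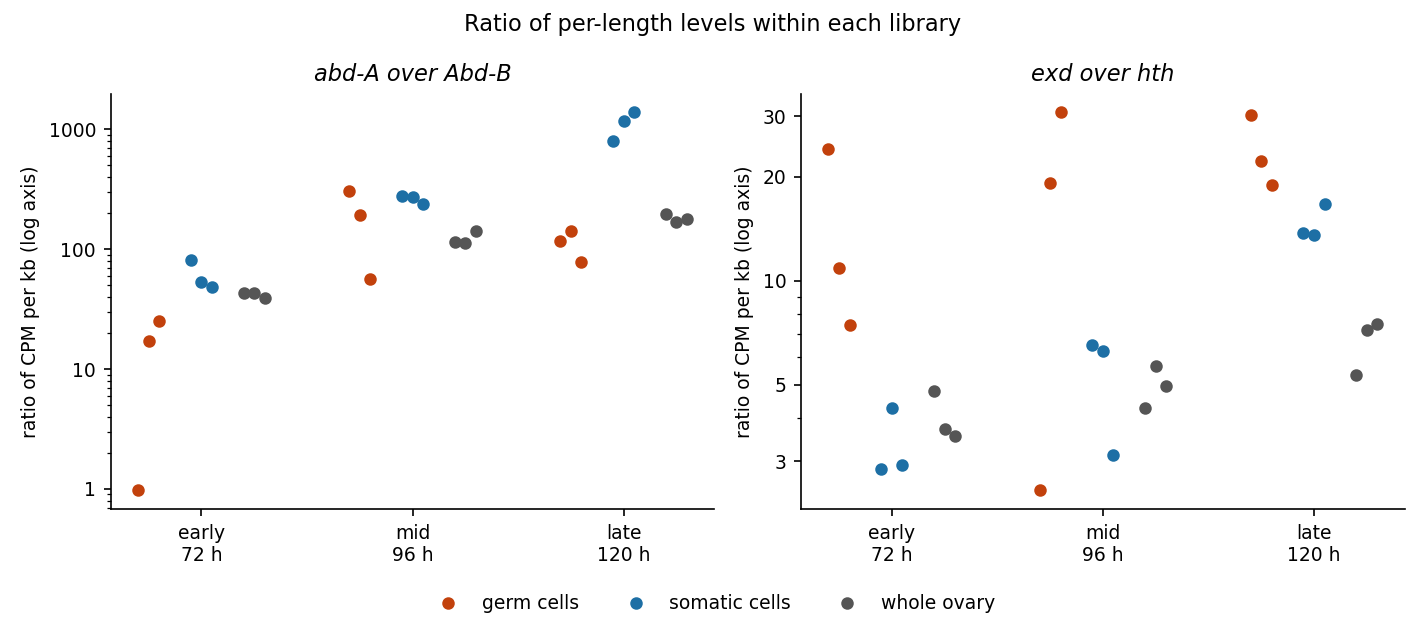
Ratio of CPM per kb of *abd-A* to *Abd-B* and of *exd* to *hth* in each library (log axes) at 72, 96 and 120 h AEL, with germ cells, somatic cells and whole ovaries from left to right at each stage. Points are libraries. The ratio of *abd-A* to *Abd-B* is 48.2 to 81.6 in early and 795 to 1378 in late somatic cells.

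The genes most like each member were found by the correlation of log2(CPM + 1) over the 18 sorted and, apart, the 9 whole ovary libraries, taking the lower of both among 9587 genes. The libraries share tissue, stage and somatic share, so that the values describe likeness only. For *abd-A* they were *dsx*, the transcription factor at the end of the sex determination pathway (r = 0.975), *aus* (0.961) and *ptc*, the Hedgehog receptor and 1 of the somatic gonad markers (0.959). *dsx* averaged 138, 219 and 234 CPM in early, mid and late germ cells, 546, 611 and 754 CPM in somatic cells and 338, 309.6 and 484 CPM in whole ovaries. For *exd* they were *me31B*, an RNA helicase of translational repression (0.935), *ova* (0.931) and *gus* (0.926). For *hth* they were *Inx2*, a gap junction protein (0.86), *mbl*, a splicing factor (0.851), and *sqd*, an RNA-binding protein (0.851). Likeness was lower for *Abd-B*, with *Corp* (0.795), *egr*, the fly TNF (0.77), and *Ca-Ma2d* (0.767), and for *Antp*, with *CG13912* (0.819), *CG14196* (0.786) and *et* (0.761). Likeness is not given without germ cell mid replicate 1, the sorted library with the most *Antp* and *hth*, and may depend on it for these genes. In mid germ cells, where *Antp* had counts in that library only, *CG13912* and *et* ranged from 0 to 7.88 and from 0 to 11.0 CPM. By rank correlation the 3 genes of *Abd-B* had 0.683, 0.55 and 0.65.

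The other Hox genes, *lab*, *pb*, *Dfd* and *Scr*, which act in the head and first thoracic segment, were at or near 0 in all tissues. *lab* was at most 1.34 CPM, in a late germ cell library, and *Dfd* at most 2.01 CPM, in an early germ cell library. *pb* did not pass 0.221 CPM and *Scr* did not pass 0.079 CPM in any library. Of the Hox-derived genes of the Antennapedia complex, *zen* and *bcd* were found in germ cells, and *zen2* was not among the genes tested. *zen* and *bcd*, which pattern the early embryo, averaged 16.4 to 33.1 and 24.1 to 41.6 CPM in the germ cell groups, against 0.0219 to 0.502 and 0.228 to 0.633 CPM in the somatic groups (adjusted p = 1.27e-05 and 7.46e-06 over all stages). *zen* did not pass the filter in somatic cells alone and was tested here through its counts in germ cells. Its levels are therefore given as values, and its adjusted p is not read as support. *abo*, a regulator of histone genes that was on the same list although its gene is not in a Hox complex, was also higher in germ cells (log2 fold change 0.91 ± 0.13, adjusted p = 5.00e-05). *Ama*, a secreted immunoglobulin protein whose gene lies in the Antennapedia complex, was lower in germ cells (-2.01 ± 0.42, adjusted p = 0.0014) and rose 3.19 ± 0.39 on the log2 scale from early to late somatic cells (adjusted p = 0.00026). Of the 5 genes of this list tested in germ over somatic cells, 3, *zen* among them, were higher and 2, *Ama* and *lncRNA:iab8*, lower, where 25.3% of all genes were called.

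Among the other TALE genes 2 of 5 rose from early to late somatic cells, where 11.7% of all genes were higher. *mirr* and *caup* of the Iroquois complex, which pattern eye, wing and follicle cells, rose by 2.75 ± 0.38 and 2.16 ± 0.38 (adjusted p = 0.000473 and 0.000936). *ara* gave 1.11, *achi* 0.55 and *vis* -1.46 (adjusted p = 0.542, 0.027 and 0.0357), short of the threshold. The list had a median log2 fold change of 1.11, against 0.02 for all genes. Among homeotic partner genes, *tsh*, a zinc finger protein of trunk identity, and *inv*, the paralog of *engrailed* and also 1 of the somatic gonad markers, rose (1.03 ± 0.16 and 2.08 ± 0.35, adjusted p = 0.000407 and 0.000691), 2 of 7 tested, where 11.7% of all genes were higher. *tsh* was lower in germ than in somatic cells (-1.29 ± 0.26, adjusted p = 0.00093). *salr*, a zinc finger gene, averaged 0.624 to 2.74 CPM in the germ cell groups and had no counts in somatic cells.

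Regulators of Hox genes were transcribed in all tissues. Of 23 Polycomb group genes, 13 rose and none fell from early to late somatic cells, where 11.7% of all genes were higher and 11.3% lower, with a median log2 fold change of 0.72, against 0.02 for all genes. *Psc* and *ph-d*, subunits of Polycomb repressive complex PRC1, rose by 1.63 ± 0.19 and 1.31 ± 0.17 (adjusted p = 7.56e-05 and 0.000155), and *pho*, which binds DNA in the Pho repressive complex, by 1.34 ± 0.16 (adjusted p = 7.95e-05). In germ over somatic cells, where 25.3% of all genes were called, 7 of the 23 were higher and 3 lower, among them *Kdm2*, a histone demethylase, at -1.17 ± 0.15 (adjusted p = 1.35e-05). In whole ovaries 2 of 23 rose from the early to the late stage. Of all genes 21.9% were called there in either direction, including the 13.5% that were lower, so that fewer were higher than lower.

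Of 21 trithorax group genes, 4 rose and 2 fell from early to late somatic cells (median log2 fold change 0.34), where 11.7% of all genes were higher and 11.3% lower, so that the share called was near that of all genes. *psq*, a DNA-binding protein of Polycomb response elements, rose by 1.11 ± 0.17 (adjusted p = 0.000473), and *ash2*, a subunit of histone methyltransferase complexes, changed by -0.90 ± 0.13 (adjusted p = 0.000298). In germ over somatic cells 3 were higher and 3 lower, a share near the 25.3% of all genes called. *brm*, the ATPase of the Brahma remodelling complex, and *Trl*, the GAGA factor, were lower in germ cells (-1.002 ± 0.10 and -0.98 ± 0.12, adjusted p = 1.50e-06 and 1.55e-05). Of 10 boundary factors of the bithorax complex tested in somatic cells, 1 rose for late over early, the insulator protein gene *su(Hw)* (0.59 ± 0.13, adjusted p = 0.00354). This share was near the 11.7% of all genes that were higher. *Elba3*, of a boundary factor known from the embryo, averaged 4.45 to 7.35 CPM in the germ cell groups and had no counts in somatic cells. No gene of these lists was called by edgeR between stages within germ cells, where it called no gene at all.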

How the data were processed

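Poly(A) RNA of the 27 libraries was sequenced as single-end reads. The authors aligned the reads with STAR 2.7.6a to the FlyBase genome of *D. melanogaster* and deposited expected counts per gene, estimated with RSEM 1.3.3 and free of any normalization. RSEM shares out reads with several matches, so that expected counts need not be whole. Tissue, stage and replicate came from the sample labels.

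The expected counts were rounded. Genes were kept with filterByExpr (minimum 10 counts, 15 in total) and scaled by TMM, and robust quasi-likelihood fits of edgeR (4.0.16, with limma 3.58.1 under R 4.3.3) were tested, with Benjamini-Hochberg adjustment over all genes of a fit and a threshold of 0.01. Stages were compared in separate fits of whole ovaries (10060 genes), somatic cells (9931) and germ cells (10340). Germ over somatic cells and interactions came from 1 fit of the 18 sorted libraries (11243 genes). Replicates are named biological replicates, made from pooled ovaries. DESeq2 1.42.0, RLE scaling, no filter, the replicate number as a block and leaving out each library were tried, and the code was tested on simulated data.

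Members, lists and tests were chosen with earlier results of these data known. The members and the other Hox genes were always named. Of the other lists, counts were given with up to 4 genes of smallest adjusted p for late over early in somatic cells or for germ over somatic cells. *ftz*, *mod(mdg4)* and the listed miRNA genes were not analysed here, and a second form of the count tables was not used. Positions and lengths came from Ensembl annotation of BDGP6, which held 16206 of the 16257 identifiers.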

Additional observations from a re-analysis of the deposited data

How the results depend on the processing

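In somatic cells the 3 calls for late over early held under every alternative run. Elsewhere the number of members called moved. DESeq2 called 1 (whole ovaries, mid over early, against 0), 2 (whole ovaries, late over mid, against 0), 4 (whole ovaries, late over early, against 2), 3 (somatic cells, mid over early, against 1), 1 (germ cells, mid over early, against 0) and 1 (germ over somatic cells, all stages, against 0). For mid over early, RLE scaling called 1 in whole ovaries, and no filter called 1 in whole ovaries and 2 in somatic cells. When 1 library at a time was left out, the number called ranged from 0 to 1 (mid over early), 0 to 2 (late over mid) and 0 to 4 (late over early) in whole ovaries, 0 to 1 (mid over early), 0 to 3 (late over mid) and 3 to 4 (late over early) in somatic cells, and 0 to 2 for germ over somatic cells over all stages.

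Changes of direction were seen only for values that were not called. *hth* in germ over somatic cells at the mid stage was 0.059 with DESeq2 and 0.054 with RLE, against -0.065. Log2 fold changes without 1 library ranged, in whole ovaries, from -0.13 to 0.16 for *abd-A* and -0.42 to 0.11 for *hth* (mid over early), and for *hth* from -0.064 to 0.30 (late over mid) and -0.28 to 0.33 (late over early). In somatic cells *hth* ranged from -0.056 to 0.37 for mid over early. In germ cells *hth* ranged from -0.63 to 2.2001 for mid over early, and late over mid ranged from -1.26 to 0.29 for *abd-A*, -0.36 to 0.85 for *Abd-B*, -2.74 to 0.073 for *hth* and -0.37 to 0.10 for *exd*. In germ over somatic cells at the mid stage, *hth* ranged from -2.27 to 0.47 and *exd* from -0.11 to 0.30. The *exd* interaction for mid over early ranged from -0.39 to 0.030. The cause was not tested.

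Same-numbered libraries did not deviate together (correlations from -0.185 to 0.298 in whole ovaries, -0.0509 to 0.072 in somatic cells and -0.165 to 0.0311 in germ cells), so the numbers do not pair them. With the replicate block 1 member was called for late over early in whole ovaries (*Abd-B* lost, adjusted p = 0.0125) and 1 for late over mid in somatic cells (*exd* lost, adjusted p = 0.0156), and 14 of all genes, against 100, for mid over early in whole ovaries.

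Over all genes DESeq2 called 692 (mid over early, against 100) and 2809 (late over mid, against 1491) in whole ovaries, and 865 against 189 and 1403 against 651 in somatic cells. In germ over somatic cells it called 1783 against 539 (early), 2048 against 840 (mid) and 1920 against 881 (late), where the block called 440 at the late stage. In the interactions DESeq2 called 418, 555 and 324, and the block 0, 0 and 7, against 4, 31 and 13 for mid over early, late over mid and late over early. Leaving out germ cell mid replicate 4 gave 844 calls for the late over mid interaction and 220 for mid over early. No filter called 296 for mid over early in somatic cells and 17 for the late over mid interaction, where RLE also called 17. With the longest transcript as length, *hth* stood at 12.2 CPM per kb in late whole ovaries, against 6.74.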
